A study of Homo sapiens with 3 samples.

Results

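The regions described here are the binding peaks of Strawberry Notch 1 (SBNO1) and of TATA-box binding protein associated factor 4 (TAF4) at promoters of long non-coding RNA (lncRNA) genes. Chromatin immunoprecipitation sequencing had been carried out in HUCCT1 cells, an established cell line of human bile duct cancer (cholangiocarcinoma, CCA), with antibodies against SBNO1, against TAF4 and with control IgG. The groups differed in the antibody, no treatment was given in the labels, and per the methods of the study the immunoprecipitates of several biological replicates were pooled into 1 library per antibody. The design therefore held 3 libraries without replicates, so differences could not be tested. Behind each share stands, in brackets, its 95% Clopper-Pearson interval, which is exact but covers counting error only, since peaks and genes are not replicates. For medians the bracket holds the 95% interval of the median over peaks. A peak was a member when it overlapped no IgG peak, lay with its nearest edge within 1 kb of a transcription start site (TSS) of an lncRNA gene in GENCODE 44, and lay over 1 kb from every TSS of a protein-coding transcript. Members were thus chosen by the measured peak positions of each antibody and of IgG, so that their place at lncRNA promoters is no finding. This rule was met by 768 of 16147 SBNO1 peaks and by 622 of 12763 TAF4 peaks, together 1390 of 28910 peaks. At protein-coding promoters of marker genes, peaks of TAF4 were found for 6 of 8 biliary epithelial genes and peaks of SBNO1 for 3 of 8, among them KRT19, SOX9 and EPCAM in both lists. Promoters of 6 hepatocyte and 4 blood cell genes held no peak, and of 4 fibroblast genes COL1A1 held one in both lists. With 19689 protein-coding genes annotated, 5810 TAF4 and 4555 SBNO1 peaks without IgG overlap lay at protein-coding promoters. The share of all these genes with a peak is not given here, so the marker counts cannot be read as a sign of cell type.

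LncRNAs are transcripts that are not translated, and most are made by RNA polymerase II from promoters of their own. TAF4 is a scaffold subunit of TFIID, the general transcription factor that places the polymerase at start sites, and SBNO1 is a nuclear protein of the helicase superfamily that was named after a Notch pathway gene of the fly. Some lncRNA genes carry other RNAs inside them: small nucleolar RNA (snoRNA) host genes release snoRNAs, guides of ribosomal RNA modification, from their introns, and microRNA host genes release the hairpins of microRNAs.

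To show what the members look like, 7 windows of 200 bp at peak centres are printed, taken from GRCh38 and read 5′ to 3′ along the strand of the lncRNA gene. Capitals mark exact matches on either strand to the AP-1 sites TGACTCA and TGAGTCA, the ETS core CCGGAA, the KLF/SP box GGGCGG, the NFY box CCAAT and the E-box CACGTG. A match is a description of the letters and not evidence of a bound factor. The first 4 windows are CpG-rich or GC-rich starts of named RNA genes. They are SNHG15 (a snoRNA host) at chr7:44986482-44986681 (minus strand), NORAD (which sequesters Pumilio proteins) at chr20:36050909-36051108 (minus strand), TERC (the RNA template of telomerase) at chr3:169765000-169765199 (minus strand) and MIR200CHG (the host of miR-200c and miR-141) at chr12:6963081-6963280 (plus strand). The annotated start nearest to the peak centre lies at base 112 of the SNHG15 window, at base 91 of NORAD, at base 140 of TERC and at base 146 of MIR200CHG, counted from 1 at the 5′ end. SNHG15 has 13 annotated starts, and the outermost lies outside the window, whereas NORAD, TERC and MIR200CHG have 1 each.
SNHG15, TAF4 peak: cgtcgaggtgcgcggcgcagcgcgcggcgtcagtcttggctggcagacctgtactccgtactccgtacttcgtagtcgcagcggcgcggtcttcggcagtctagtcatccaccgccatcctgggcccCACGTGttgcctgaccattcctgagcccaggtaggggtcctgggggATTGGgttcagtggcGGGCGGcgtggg
NORAD, TAF4 peak: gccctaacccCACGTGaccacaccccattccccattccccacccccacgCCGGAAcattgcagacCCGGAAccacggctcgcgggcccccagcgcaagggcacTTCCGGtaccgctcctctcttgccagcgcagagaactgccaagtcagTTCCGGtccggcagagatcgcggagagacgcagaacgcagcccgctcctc
TERC, SBNO1 peak: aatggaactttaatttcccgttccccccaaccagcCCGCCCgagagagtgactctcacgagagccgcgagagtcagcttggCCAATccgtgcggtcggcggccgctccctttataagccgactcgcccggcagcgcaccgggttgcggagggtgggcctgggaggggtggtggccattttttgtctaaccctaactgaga
MIR200CHG, SBNO1 peak: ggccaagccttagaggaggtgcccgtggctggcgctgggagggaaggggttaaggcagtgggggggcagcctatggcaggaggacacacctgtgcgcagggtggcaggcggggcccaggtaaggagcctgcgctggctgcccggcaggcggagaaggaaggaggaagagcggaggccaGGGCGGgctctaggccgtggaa
The other 3 windows hold an AP-1 site in a CpG-poor setting. They belong to ENSG00000258623 at chr14:68685512-68685711 (minus strand), where the start lies at base 147, to LINC02725 at chr11:128180552-128180751 (plus strand) and to CASC15 at chr6:22113104-22113303 (plus strand), both of which have the nearest start outside the window.
ENSG00000258623, SBNO1 peak: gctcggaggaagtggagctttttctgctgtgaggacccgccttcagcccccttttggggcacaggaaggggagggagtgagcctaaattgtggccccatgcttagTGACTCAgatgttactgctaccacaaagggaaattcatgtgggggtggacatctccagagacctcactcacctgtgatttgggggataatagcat
LINC02725, SBNO1 peak: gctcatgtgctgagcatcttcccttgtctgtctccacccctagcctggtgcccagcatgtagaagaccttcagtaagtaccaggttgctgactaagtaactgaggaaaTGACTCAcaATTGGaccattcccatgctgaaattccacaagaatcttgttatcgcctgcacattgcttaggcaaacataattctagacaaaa
CASC15, SBNO1 peak: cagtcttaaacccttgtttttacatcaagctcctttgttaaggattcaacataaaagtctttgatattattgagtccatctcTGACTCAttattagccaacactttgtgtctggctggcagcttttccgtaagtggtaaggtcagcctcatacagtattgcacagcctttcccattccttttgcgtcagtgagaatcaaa
NORAD was in the TAF4 list alone, LINC02725 and this CASC15 site were in the SBNO1 list alone, and the other 4 sites held peaks of both lists. The ratio of observed to expected CpG in these windows was 0.97 for SNHG15, 0.87 for NORAD, 0.88 for TERC and 0.47 for MIR200CHG, against 0.14, 0.10 and 0.26 for the AP-1 windows, where 1 stands for as many CpG as the base composition gives.

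LncRNA promoters took similar shares of both lists. Of the peaks without IgG overlap, 5.20% of SBNO1 peaks (768 of 14763, interval 4.85 to 5.57) and 5.47% of TAF4 peaks (622 of 11377, 5.06 to 5.90) were members. The IgG library, read by the same distances, gave 5.26% (84 of 1598, 4.21 to 6.47). Positions that meet both distances make up 44 Mb, which is 1.5% of the 2938 Mb of known sequence. The intervals of all 3 libraries overlapped. The genome figure counts single positions, whereas a peak qualifies by its nearest edge, so it is no chance share for peaks. Protein-coding promoters held 4555 SBNO1 and 5810 TAF4 peaks without IgG overlap, and 9440 and 4945 peaks lay away from both kinds of promoter. At the limits of the rule, the farthest members lay 999 bp from an lncRNA TSS (SBNO1 at ENSG00000254639 and TAF4 at STEAP1B-AS1), and the nearest peaks left out lay at 1005 bp (LINC00598) and 1007 bp (ENSG00000289017). At the protein-coding limit, members lay as near as 1009 bp (ENSG00000255050, SBNO1) and 1014 bp (ENSG00000276651, TAF4), and peaks at 993 bp (ENSG00000254718) and 984 bp (ENSG00000274021) were left out.

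TAF4 members covered an lncRNA start more often than SBNO1 members did. An lncRNA TSS was covered by 393 of 622 TAF4 members (63.2%, 59.3 to 67.0) and by 401 of 768 SBNO1 members (52.2%, 48.6 to 55.8). Among the 84 IgG peaks it was 46, 54.8% (43.5 to 65.7), an interval that holds the shares of both SBNO1 and TAF4. At protein-coding promoters the covered shares were higher for each list, 85.7% (84.7 to 86.6) for TAF4, 80.3% (79.1 to 81.5) for SBNO1 and 73.2% (67.0 to 78.8) for IgG. Centres of the covering peaks lay a median 31 bp (17 to 39) upstream of the TSS for SBNO1 and 32 bp (24 to 45) upstream for TAF4. For IgG it was 12 bp upstream (84 upstream to 21 downstream), an interval that holds both. Distances were taken to the covered start nearest the centre, so small values follow from this choice. A canonical lncRNA start was among the starts covered by 285 of 401 SBNO1 peaks (71.1%, 66.4 to 75.5) and 318 of 393 TAF4 peaks (80.9%, 76.7 to 84.7). The covered start nearest to the peak centre was a canonical one in 202 and 217 cases. Peaks that covered no start lay on both sides of it, with 193 upstream and 174 downstream for SBNO1 and 111 and 118 for TAF4.

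**Figure D1:**
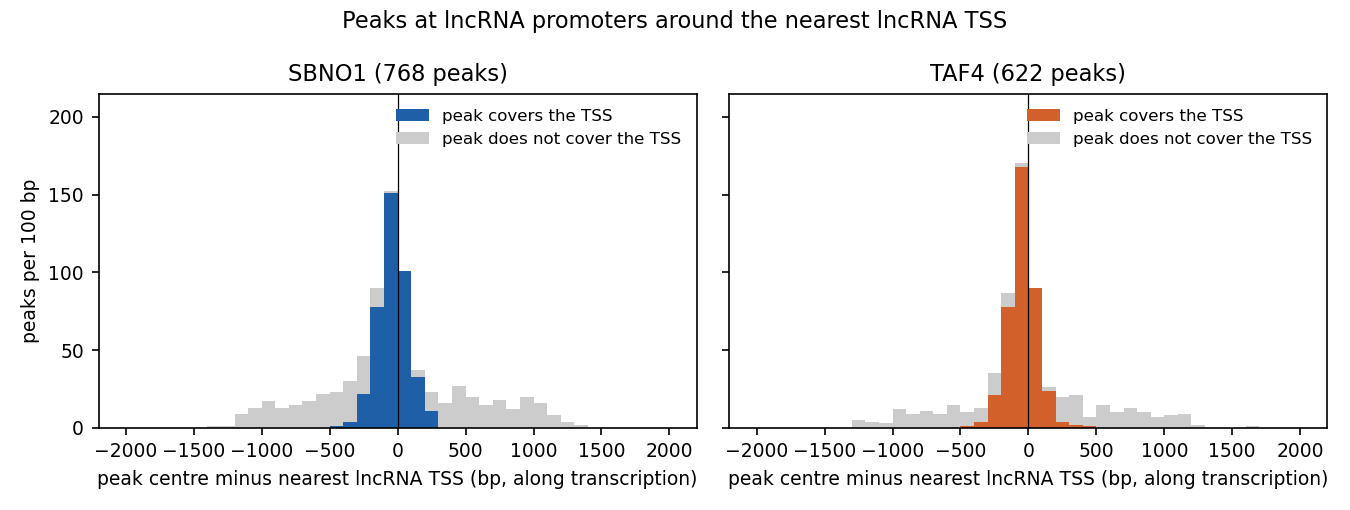
Distance in bp of each member peak's centre from its nearest lncRNA TSS, in bins of 100 bp, with upstream to the left and counts of peaks on the vertical axis. Coloured bars are peaks that cover the TSS (401 of 768 for SBNO1, 393 of 622 for TAF4). They lie near 0 because the covered start nearest the centre was taken. Grey bars are the other members on both sides.

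The median distance of members to the nearest protein-coding TSS was 33797 bp (30864 to 37933) for SBNO1 and 31252 bp (27373 to 34060) for TAF4, beside 30008 bp and 27002 bp for peaks away from both kinds of promoter. A protein-coding TSS lay within 2 kb of 49 SBNO1 and 44 TAF4 members and over 100 kb away from 171 and 120. Peak centres were outside protein-coding genes for 79.2% (76.1 to 82.0) of SBNO1 members and 80.9% (77.6 to 83.9) of TAF4 members, and in their introns for 19.1% (16.4 to 22.1) and 17.4% (14.5 to 20.6). Peaks away from both kinds of promoter were outside protein-coding genes in 51.4% (50.3 to 52.4) and 52.7% (51.3 to 54.1), and IgG peaks at lncRNA promoters in 83.3% (73.6 to 90.6).

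The overlap of both lists differed between members on and off a start, in opposite directions. Members on a start were also wider, with medians of 449 against 376 bp (SBNO1) and 434 against 368 bp (TAF4). What part the width had in the overlap was not tested. Overlap was counted with every peak of the other list, including those that themselves overlap an IgG peak. Of SBNO1 members, 462 of 768 (60.2%, 56.6 to 63.6) overlapped a TAF4 peak, against a background of 56.3% of all SBNO1 peaks without IgG overlap. Of TAF4 members, 465 of 622 (74.8%, 71.2 to 78.1) overlapped an SBNO1 peak, against 73.1% of all TAF4 peaks. Over all members the shares were thus within 4 percentage points of the whole lists. Among SBNO1 members, TAF4 was present at 69.3% (64.6 to 73.8) of those that covered a TSS and at 50.1% (44.9 to 55.4) of those that did not. Among TAF4 members it was the reverse, with SBNO1 at 70.2% (65.4 to 74.7) of covering and 82.5% (77.0 to 87.2) of the other peaks. Away from both kinds of promoter, 82.4% (81.3 to 83.5) of TAF4 peaks held SBNO1, a share close to that of members off the start. The matching SBNO1 share with TAF4 was 43.2% (42.2 to 44.2), below that of members off the start, with no overlap of the intervals.

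Members on a start lay between these and protein-coding starts for SBNO1. Where a peak covered a protein-coding TSS, 87.5% (86.4 to 88.5) of SBNO1 peaks overlapped TAF4, above the 69.3% at covered lncRNA starts, with no overlap of the intervals. For TAF4 peaks the share with SBNO1 was 65.7% (64.3 to 67.0) at covered protein-coding starts, and its interval met that of the 70.2% at lncRNA starts. IgG peaks at lncRNA promoters, which were kept out of the members, overlapped an SBNO1 peak in 80 of 84 cases and a TAF4 peak in 78 of 84. What part of the sharing came from background common to the libraries was not tested.

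**Figure D2:**
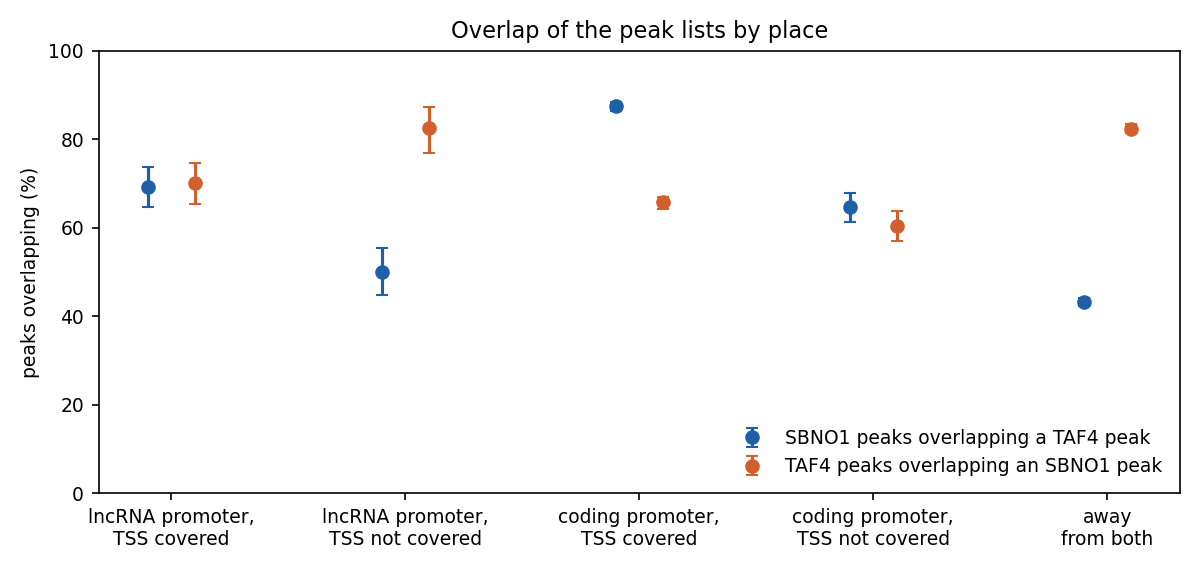
Percent of SBNO1 peaks that overlap a TAF4 peak and of TAF4 peaks that overlap an SBNO1 peak (vertical axis), by place of the peak, with exact 95% intervals as bars. Counted peaks that overlap IgG are left out, whereas the peaks they overlap are from the whole other list. The SBNO1 share is 69.3% at covered lncRNA starts and 50.1% at members off the start, and the TAF4 share is 70.2% and 82.5%.

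GC content moved with the overlap. In windows of 200 bp at the centre, the median GC content was 52.5% (51.5 to 53.5) for SBNO1 members and 56.5% (55.5 to 58.0) for TAF4 members, 55% and 60% where a start was covered and 50.5% and 51.0% where none was. SBNO1 members overlapped TAF4 in 43.7% (36.1 to 51.6) of cases below 45% GC, in 56.6% from 45% to under 55%, in 64.4% from 55% to under 65% and in 85.1% (77.2 to 91.1) at 65% or more. TAF4 members overlapped SBNO1 in 83.5% (73.5 to 90.9), 81.6%, 74.3% and 61.4% (52.9 to 69.3) of cases in the same classes. The members of the GC-rich class resembled protein-coding promoters of that class, where 87.3% (85.7 to 88.8) of SBNO1 peaks held TAF4 and 57.1% (55.3 to 59.0) of TAF4 peaks held SBNO1. Between 55% and under 65% GC the SBNO1 members stayed below the protein-coding promoters, with 64.4% (57.5 to 70.9) against 85.8% (84.1 to 87.4). TAF4 members without SBNO1 had a median GC content of 61.0% (57.5 to 63.5) and a CpG ratio of 0.68, and those with SBNO1 had 55% and 0.43, whereas SBNO1 members without TAF4 had 49% (48.0 to 50) and 0.26.

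AP-1 is the dimer of FOS and JUN factors known from enhancers, KLF and SP factors bind GC boxes of promoters, and ETS factors bind near starts of housekeeping genes. The AP-1 site was in 28% (24.8 to 31.3) of SBNO1 and 23.5% (20.2 to 27.0) of TAF4 members, beside 29.1% and 20.0% of all peaks of these lists without IgG overlap. The KLF/SP box was in 25.1% (22.1 to 28.4) and 36.2% (32.4 to 40.1), beside 22.4% and 37.1%. The ETS core was in 9.51% and 13.3%, beside 11.0% and 15.6%. The NFY box was in 24.5% and 27.0%, beside 25.6% and 29.6%, the letters TATAAA in 5.86% and 4.18%, beside 7.27% and 5.56%, and the E-box in 5.73% and 7.40%, beside 4.70% and 6.76%. The long motifs were rare, NRF1 with 0.260% and 0.804% beside 0.447% and 0.853%, and CTCF with 1.56% (0.810 to 2.71) and 0.482% beside 0.772% and 0.650%. The list's share lay outside the members' interval for CTCF in SBNO1 members and for AP-1 in TAF4 members, both higher in the members. Windows moved 1000 bp to either side of the same peaks held AP-1 in 4.17% (SBNO1) and 4.34% (TAF4) and the KLF/SP box in 8.20% and 9.57%. IgG peaks at lncRNA promoters held AP-1 in 26 of 84 windows (31.0%, 21.3 to 42.0) and the KLF/SP box in 15 (17.9%, 10.4 to 27.7), so that the AP-1 share of the members was not above that of the control.

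Split by position, KLF/SP belonged more to covered starts and AP-1 more to peaks beside them. Among SBNO1 members KLF/SP fell from 32.4% (27.9 to 37.2) on a start to 17.2% (13.5 to 21.4) off it, while AP-1 went from 23.9% (19.8 to 28.4) to 32.4% (27.7 to 37.5). Among TAF4 members KLF/SP was at 43.8% (38.8 to 48.8) on and 23.1% (17.8 to 29.2) off a start, and AP-1 at 17.0% (13.5 to 21.1) and 34.5% (28.4 to 41.0). Covered protein-coding starts differed from covered lncRNA starts in both motifs, since AP-1 was in 4.73% (4.06 to 5.47) of SBNO1 and 3.13% (2.67 to 3.66) of TAF4 windows there and KLF/SP in 58.1% and 62.9%. Even on its start, an lncRNA promoter with a peak therefore held AP-1 several times as often as a protein-coding one. The IgG peaks showed a like difference, with AP-1 in 14 of 46 windows on lncRNA starts (30.4%, 17.7 to 45.8) and in 10 of 231 at protein-coding promoters (4.33%, 2.10 to 7.82). Of these 231 peaks 169 covered the start, so the 2 IgG sets were not chosen alike. Sharing followed the motif too, as SBNO1 members with KLF/SP and no AP-1 overlapped TAF4 in 76.4% (69.1 to 82.6) and those with AP-1 and no KLF/SP in 53.5% (46.1 to 60.8). For TAF4 members the shares with SBNO1 were 60.7% (53.6 to 67.5) and 86.1% (78.6 to 91.7), in the opposite order. For SBNO1 this held on the start, with 85.5% (77.8 to 91.3) against 55.4% (44.1 to 66.3), but off the start the shares were 54.2% (39.2 to 68.6) and 51.9% (41.9 to 61.8).

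**Figure D3:**
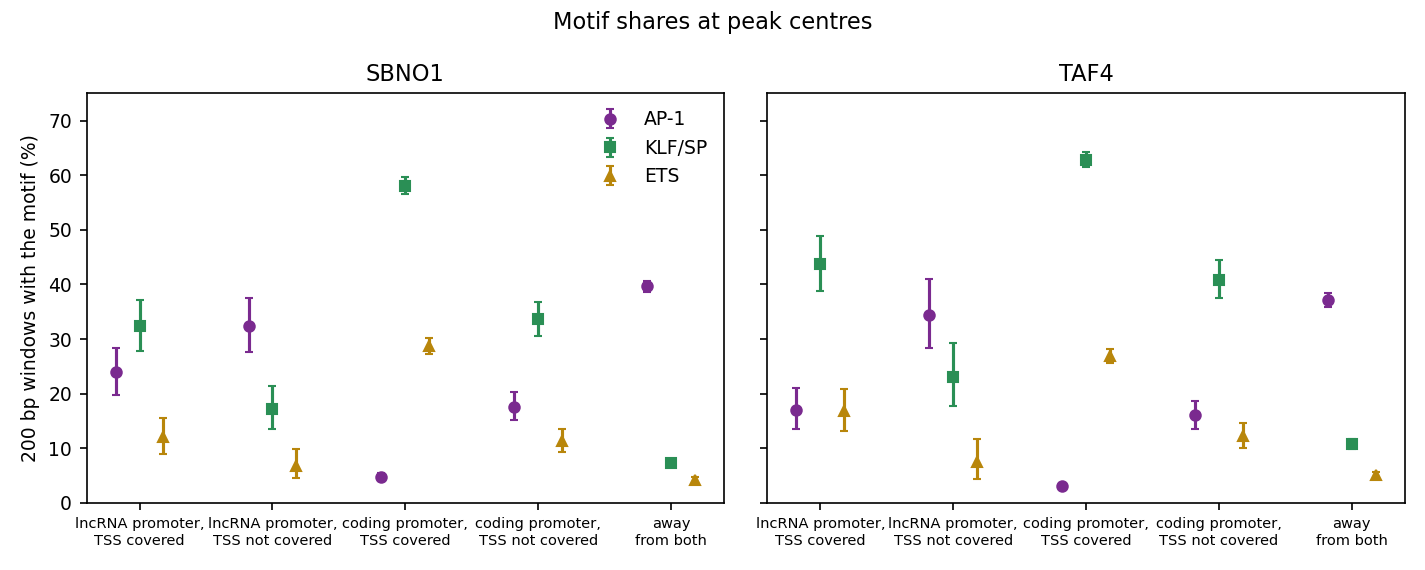
Percent of 200 bp windows at peak centres with an exact AP-1, KLF/SP or ETS match (vertical axis), by place of the peak, for SBNO1 (left) and TAF4 (right), with exact 95% intervals as bars. KLF/SP is lower off the start than on it at lncRNA promoters and AP-1 higher, and AP-1 is at 4.73% or less on protein-coding starts.

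The windows of the canonical starts themselves were read as well, from 250 bp before to 50 bp after the start. Of 15424 canonical lncRNA starts over 1 kb from a protein-coding TSS, 314 lay inside an SBNO1 member and 359 inside a TAF4 member, some of them more than 1 to a peak. Of all these starts 6.46% held AP-1, 14.3% KLF/SP, 6.52% ETS and 4.91% the E-box, the site of MYC and USF factors. Starts inside an SBNO1 member held them in 18.5% (14.3 to 23.2), 44.9% (39.3 to 50.6), 24.2% (19.6 to 29.3) and 8.92% (6.01 to 12.6). Starts inside a TAF4 member held them in 15.3% (11.8 to 19.5), 57.9% (52.6 to 63.1), 26.2% (21.7 to 31.1) and 10.6% (7.60 to 14.2). All 4 motifs thus had higher shares at these starts than over all lncRNA starts. For the NFY box the share of all starts, 36.2%, lay within the intervals of 35.7% (30.4 to 41.2) and 37.3% (32.3 to 42.6). The TATA letters TATAAA, at 18.1% of all starts, were in 9.24% (6.27 to 13.0) and 5.85% (3.66 to 8.80) of those inside members, which were also richer in GC with medians of 56.3% and 60.3% against 46.7%. Between 40 and 16 bp before the start on the sense strand they stood in 1.39% of all starts, in 2 of 314 inside SBNO1 members and in 3 of 359 inside TAF4 members.

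Few lncRNA genes held a member. Of 16023 lncRNA genes with a start over 1 kb from every protein-coding TSS, 655 (4.09%, 3.79 to 4.41) held an SBNO1 member and 538 (3.36%, 3.08 to 3.65) a TAF4 member. A member of each list was found at 393 genes, 60% of the SBNO1 genes and 73.0% of the TAF4 genes. The covered-start counts were alike, 377 and 376 genes, which is 2.35% of all for both, with 235 in common. SBNO1 alone had 262 genes and TAF4 alone 145, of which 19 each had their peak overlapped by one of the other library that was counted at a neighbouring gene or left out. The share rose with the number of annotated starts, from 2.75% (SBNO1) and 2.22% (TAF4) of genes with 1 start to 5.42% and 4.35% with 2 to 5 and 11.2% (9.59 to 13.0) and 9.82% (8.29 to 11.5) with 6 or more. Genes with 1 member were the rule, and 12 genes held 3 or more SBNO1 members and 5 genes 3 or more TAF4 members.

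Host genes of small RNAs stood above the other classes. Of 27 snoRNA hosts, 13 held an SBNO1 member (48.1%, 28.7 to 68.1) and 15 a TAF4 member (55.6%, 35.3 to 74.5), and 11 held both. Of 80 microRNA hosts, 15 held a member of each list (18.8%, 10.9 to 29.0), 14 of them the same genes. Among genes named after an antisense position (-AS) the shares were 5.22% and 4.16%, among divergent transcripts (-DT) 6.79% and 6.17%, and among LINC genes 5.38% and 4.08%. Genes of other symbols had 8.12% and 8.53%, intronic or overlapping genes (-IT, -OT) 2.92% and 0.730%, and genes without a symbol 3.21% and 2.55%. Hosts have many annotated starts, a mean of 15.1 for snoRNA and 14.2 for microRNA hosts. Within genes with 6 or more starts, 10 of 16 snoRNA hosts held an SBNO1 and 11 of 16 a TAF4 member, and of 38 microRNA hosts 9 held an SBNO1 and 9 a TAF4 member, with 8 holding both, beside the 11.2% and 9.82% of all such genes.

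**Figure D4:**
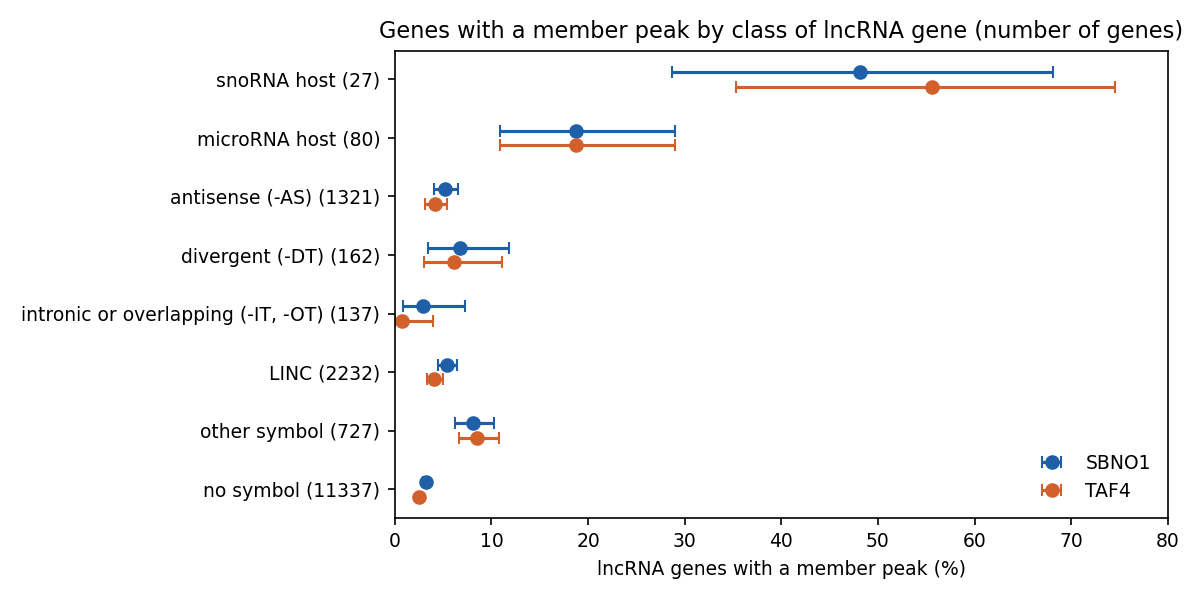
Percent of lncRNA genes with a member peak (horizontal axis) by class of gene symbol, with the number of genes in brackets and exact 95% intervals as bars. SnoRNA hosts stand at 48.1% (SBNO1) and 55.6% (TAF4) and microRNA hosts at 18.8%, and the other classes lie below 10%.

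All peaks at snoRNA hosts covered a start, and nearly all of those of TAF4 stood at the score cap. The deposited score is a whole number with a cap of 1000 and an unstated scale, so it only ranks peaks within a list. Of 15 TAF4 peaks at snoRNA hosts 14 stood at 1000 and the peak of SNHG7 at 938, whereas 35.9% of all TAF4 members stood at the cap. SBNO1 peaks at 13 hosts ranged from 461 to 1000 with a median of 962, and 6 stood at 1000. At SNHG15, wide peaks of both libraries covered the same start, SBNO1 at chr7:44986061-44987105 with a score of 553 and TAF4 at chr7:44986106-44987056 with 1000. SNHG5 (536), SNHG26 (461), SNHG25 (655) and SNHG12 (677) also had SBNO1 scores below the SBNO1 median of 822, with TAF4 at 1000 in each. SNHG8, SNHG11, SNHG17, SNHG29 and EPB41L4A-AS1 stood at 1000 in both lists, and SNHG21 had 962 (SBNO1) and 1000 (TAF4). SNHG6, SNHG7, SNHG30 and SNHG32 had a TAF4 member without an SBNO1 peak within 1 kb, and SNHG20 and DANCR had an SBNO1 member without a TAF4 member. A TAF4 peak did lie within 1 kb of both, but at SNHG20 it did not meet the rule and at DANCR it was counted for another lncRNA gene.

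At the median, the windows of these peaks were richer in GC and CpG than those of all members, whose CpG ratios were 0.33 (SBNO1) and 0.49 (TAF4). Members that covered a start are the closer comparison, with CpG ratios of 0.44 and 0.64, and their GC medians given above were also lower. Peaks at protein-coding promoters came nearer, with a median GC content of 62.5% and 64.5% and CpG ratios of 0.81 and 0.85. The median GC content at snoRNA hosts was 63.5% (52.5 to 72.0 as the range) for SBNO1 and 65% (47.0 to 74.5 as the range) for TAF4, with CpG ratios of 0.97 and 0.94. The E-box was in 4 of 13 SBNO1 and 5 of 15 TAF4 windows, the KLF/SP box in 6 of each, and AP-1 in 1 and 0. The E-box share over all members was 5.73% for SBNO1 and 7.40% for TAF4. Members on a start held the E-box in 6.23% and 8.65%, the KLF/SP box in 32.4% and 43.8%, and AP-1 in 23.9% and 17.0%. The KLF/SP share of the TAF4 peaks at snoRNA hosts was thus not above that of TAF4 members on a start. The SNHG15 window printed above shows the E-box, the NFY box and the KLF/SP box together. Of the 14 snoRNA hosts without an SBNO1 member, 6 had an SBNO1 peak within 1 kb that the rule gave elsewhere, at 5 genes because a protein-coding TSS was within 1 kb of it (GAS5, SNHG1, SNHG10, SNHG31 and ZFAS1, with no IgG peak within 1 kb of their starts) and at SNHG16 because another lncRNA TSS was nearer. Counting any peak within 1 kb, 19 of 27 snoRNA hosts had SBNO1 and 23 of 27 had TAF4, beside 6.58% and 6.35% of all lncRNA genes and 15.7% and 16.5% of those with 6 or more starts.

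**Figure D5:**
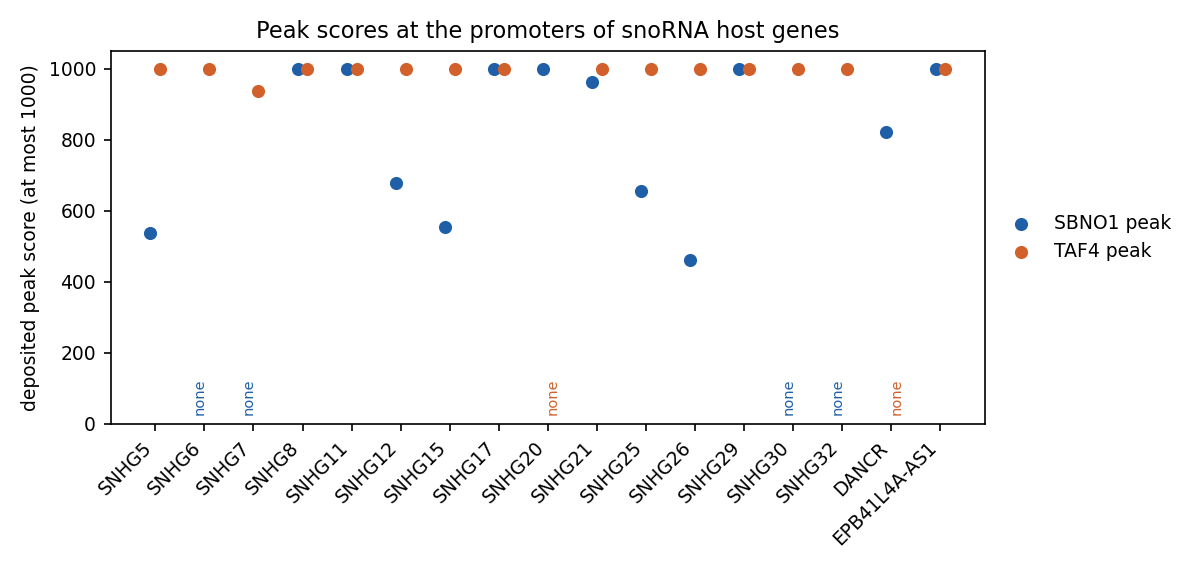
Deposited peak score (vertical axis, at most 1000) of the SBNO1 and TAF4 member at each of the 17 snoRNA host genes with a member, and the word none where a library had no member. TAF4 stands at 1000 in 14 of its 15 peaks, and SBNO1 ranges from 461 to 1000.

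MicroRNA hosts with a member included those of let-7, of miR-221 and miR-222, and of miR-200c and miR-141. No peak lay within 1 kb of a start at 64 of the 80 hosts for SBNO1 and at 65 for TAF4. MIR17HG, MIR155HG and MIR34AHG were among these for both. All 16 hosts with a member of either list held at least 1 mature microRNA of the RefSeq table, together 57 mature microRNA entries with 40 different seeds. The seed (bases 2 to 8, in capitals), the stretch that pairs with targets, was shared by microRNAs of 4 of these hosts for let-7, namely MIRLET7A1HG, MIRLET7BHG, MIRLET7IHG and MIR100HG. The pairs from MIR222HG (miR-221 and miR-222) share one, whereas miR-200c-3p and miR-141-3p from MIR200CHG have different seeds. The mature sequences are from RefSeq and are shown for these families.
hsa-let-7a-5p: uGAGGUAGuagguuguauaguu
hsa-let-7i-5p: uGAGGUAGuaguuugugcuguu
hsa-miR-221-3p: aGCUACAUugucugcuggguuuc
hsa-miR-222-3p: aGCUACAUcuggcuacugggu
hsa-miR-200c-3p: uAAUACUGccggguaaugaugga
hsa-miR-141-3p: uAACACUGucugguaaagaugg
At MIR200CHG both libraries had a peak at 1000 over the canonical start (SBNO1 chr12:6963043-6963318, TAF4 chr12:6962901-6963350) and a weaker pair upstream with scores of 796 and 610. MIRLET7BHG held SBNO1 peaks at 987 and 949 and TAF4 peaks at 901 and 855, each pair over a start. MIRLET7IHG had 799 and 773 and MIRLET7A1HG 608 and 743. At MIR222HG SBNO1 had 760 and TAF4 998 over a start, and TAF4 a further peak at 994 without SBNO1. All of these hosts were thus in both lists. MIR31HG had scores of 401 and 388 at an overlapping pair and a TAF4 peak at 769 over a start. Further hosts in both lists were MIR9-1HG (SBNO1 1000 and 1000, TAF4 830 and 628), MIR100HG (1000 and 630, 587), MIR181A1HG (539, 1000), MIR181A2HG (748, 1000 and 884), MIR23AHG (590, 645), MIR4280HG (870, 721) and MIR4435-2HG (626, 861). MIR9-3HG was in the SBNO1 list alone and MIR762HG in the TAF4 list alone. At DLEU2 and DLEU1, divergent genes that share a promoter, the overlapping peaks at chr13:50081924-50082193 (SBNO1, 1000) and chr13:50081945-50082287 (TAF4, 919) were counted for DLEU2 and for DLEU1, as their centres were nearer to different starts. DLEU2 had a TAF4 member of its own at chr13:50124358-50124792 with a score of 543, so that it too was in both lists.

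Among 16 structural and regulatory lncRNAs with a start over 1 kb from protein-coding TSS, TAF4 had members at 6 and SBNO1 at 3, beside 3.36% and 4.09% of all such lncRNA genes. The list has a median of 11.5 starts per gene, and of its 10 genes with 6 or more starts TAF4 had members at 4 and SBNO1 at 2, beside 9.82% and 11.2% of all genes with that many. TERC, at chr3:169764943-169765255, had an SBNO1 score of 1000 and a TAF4 score of 834. NORAD, at chr20:36050794-36051223, had a TAF4 peak at 1000 and no SBNO1 peak within 1 kb. OIP5-AS1, which lies beside a mitotic gene, had 831 (SBNO1) and 999 (TAF4). MALAT1, the abundant RNA of nuclear speckles, had its first pair of members at 822 (SBNO1) and 1000 (TAF4) over alternative starts. Further members inside the gene stood at 528 and 300 (SBNO1) and 390 (TAF4), with 2 IgG peaks within the gene. At the 5′ end of the gene, an SBNO1 peak at 1000 (chr11:65497320-65497980) overlapped an IgG peak over a start and was left out. Of the peaks within 1 kb of a MALAT1 start, 3 of 4 SBNO1 and 2 of 3 TAF4 peaks were members. At NEAT1, the scaffold RNA of paraspeckles, both SBNO1 peaks within 1 kb of a start overlapped IgG peaks and were left out. A TAF4 peak at 477 remained as a member although it overlapped one of them, and 4 IgG peaks lay in the gene. The remaining TAF4 members were at LINC-PINT, with 758 and 567. There 2 SBNO1 peaks also lay within 1 kb of a start, but none was counted for LINC-PINT, and at least 1 was counted for another lncRNA gene. No peak lay within 1 kb of a start at 10 of the 16 genes for SBNO1 and at 9 for TAF4.

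Of 22 cancer-associated lncRNAs, 8 had an SBNO1 and 6 a TAF4 member, and the 6 were among the 8. The median was 17.0 starts per gene, and of 14 genes with 6 or more starts 7 held an SBNO1 and 6 a TAF4 member, beside 11.2% and 9.82% of all such genes. Genes were counted by symbol, and LINC01605, which has 2 gene identifiers and no member, was counted once. UCA1, an RNA first described in bladder cancer, had peaks over a start with 787 (SBNO1) and 1000 (TAF4). LINC00511 held the most members, 11 of SBNO1 and 10 of TAF4, spread over a gene of 350 kb on chromosome 17 with 84 annotated starts, and the pair at its canonical start, chr17:72592681-72592952 and chr17:72592566-72592958, stood at 1000 in both lists. The gene also held 3 IgG peaks. CASC19, a gene of 155 kb with 72 starts near MYC, followed with 5 SBNO1 and 4 TAF4 members and no IgG peak. GASAL1, a gene of 4.52 kb with 5 starts, held 3 overlapping pairs with SBNO1 scores of 810, 1000 and 971 and TAF4 scores of 753, 1000 and 867. CASC15 had 3 SBNO1 members at 980, 606 and 730, of which the last 2 overlapped TAF4 peaks at 1000 and 506, and all 3 windows held AP-1. PVT1, the neighbour of MYC on chromosome 8, had 3 SBNO1 members at 783, 1000 and 750 and 2 TAF4 members at 946 and 1000, in a gene of 393 kb with 3 IgG peaks. CYTOR and MIR4435-2HG, near-identical copies on chromosome 2, had pairs with 800 and 754 and with 626 and 861. Reads of these copies may not be separable, so their peaks are uncertain. DLEU1 had SBNO1 at 1000 and TAF4 at 1000 at an overlapping pair inside the gene. PCAT1 (1000) and PCAT6 (855) had an SBNO1 member alone. At PCAT1, 2 TAF4 peaks within 1 kb of a start did not meet the rule, and a TAF4 peak at PCAT6 was counted for another lncRNA gene. LUCAT1 had peaks in both libraries that all overlapped IgG. Of 10 lncRNAs of liver and foregut, LINC01485 alone had a member, an SBNO1 peak at 708, and at the 9 others no peak of either library lay within 1 kb of a start. With TAF4 members at 0 of 10, shares of up to 30.8% lie in the interval, and for SBNO1 the interval is 0.253 to 44.5. The shares of all lncRNA genes, 4.09% (SBNO1) and 3.36% (TAF4), lie within both, so these counts do not set the list apart.

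Members were then ranked by score and width. Shared peaks were led by ENSG00000285517 (chr12:30794898-30795972, 1000 and 979), LINC02057 (chr5:61304351-61305366, 1000 in both), ENSG00000258623 (chr14:68685156-68686067, 1000 in both), ENSG00000243885 (chr3:149386416-149387287, 1000 in both) and LINC02960 (chr14:90382889-90383703, 1000 in both). Of these, ENSG00000243885 lay off its start, at 616 bp, and 8767 bp from the start of TM4SF1, and the other 4 peaks covered a start. SBNO1 members without TAF4 were led by LINC02725, ENSG00000229263, PRKG2-AS1, ENSG00000236889 and ENSG00000254365, all at 1000, with GC contents of 37.0% to 52.5% and no KLF/SP box. TAF4 members without SBNO1 were led by ENSG00000289222, STAG3L4, SNHG32, ENSG00000287264 and NORAD, all at 1000 and all over a start, with GC contents of 47.0% to 71.5%. LINC02725 and PRKG2-AS1 had their peak over a start, and the other 3 leading SBNO1 peaks lay 617 to 715 bp from one. GC contents of the leading peaks of both classes overlapped between 47.0% and 52.5%.

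Sharing moved with score. SBNO1 members that overlapped TAF4 had a median score of 880 (839 to 920) against 754 (724 to 789) for the others, and TAF4 members that overlapped SBNO1 had 898 (864 to 933) against 803 (735 to 877). Members at the cap were 29.4% (26.2 to 32.8) for SBNO1 and 35.9% (32.1 to 39.8) for TAF4, beside 31.7% and 40.1% of all peaks of the lists. Over 462 overlapping pairs, Spearman's rho across pairs was 0.32 for the scores and 0.49 for the widths. Widths had medians of 410 bp (397 to 425) for SBNO1 and 404 bp (388 to 419) for TAF4. Shared members were wider than the others, with 438 against 366 bp for SBNO1 and 434 against 364 bp for TAF4.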

How the data were processed

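ChIP-seq had been done with SBNO1, TAF4 and IgG antibodies in HUCCT1 cells, with 1 library per antibody. The deposited files are peak lists with a position and a score per peak, a whole number of at most 1000 whose scaling by the authors is not stated. Per the submitters' processing notes Bowtie2 2.5.4 and Genrich 0.6.1 were used on GRCh38, whereas the methods of the study name normR as the peak caller. No signal, p-value or read count was used here, so the depth is unknown.

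Peaks were set against transcript starts of GENCODE 44 with Python 3.11.15, pandas 2.3.3 and scipy 1.17.1. A peak overlapped another when at least 1 bp was shared, and was counted for the gene with the nearest lncRNA TSS. Motifs were exact matches on both strands in windows of 200 bp at peak centres. The counting steps were tested on simulated data. Genes were named by a rule: the first 5 by score and width in each overlap class, the 3 genes with most members per list, the peaks next to each limit and genes of the fixed lists with a member. The members, lists and this rule were chosen with earlier results of these data known. Alternatives were other distances, score limits, overlaps, windows and IgG handling.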

Additional observations from a re-analysis of the deposited data

How the results depend on the processing

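No paired analysis was possible because a single pooled library stood behind every antibody. Of 181 values under alternatives, 99 stayed within the interval of the reported value or within 1.5 times its count, and 82 moved out of it. Whether a comparison changed its direction was not scored. In what follows SBNO1 is given before TAF4, and the causes were not tested unless the alternative itself takes in more or fewer sites. A distance limit of 3 kb gave 1285 and 943 members, 8.70% and 8.29% of the lists, and one of 500 bp gave 4.22% and 4.62%. Leaving out peaks within 5 kb of a protein-coding TSS gave 4.42% and 4.68%, with 82.5% and 85.2% intergenic, 16.1% and 13.7% in introns and median protein-coding distances of 41953 and 38670 bp. With 1 TSS per lncRNA gene the shares were 4.02% and 4.45%, and 48.1% of SBNO1 members covered the TSS. With this choice LINC genes stood at 4.13% and 3.27%, genes of other symbols at 5.99% and 6.57%, and liver and foregut genes at 0% for SBNO1. Giving a peak to every lncRNA gene within 1 kb put genes without a symbol at 3.70% and 3.02% and LINC genes at 5.06% for TAF4. Scores at or above the list median left 343 and 266 members, 4.94% for TAF4, with overlaps of 70% and 78.9%. Peaks at the highest score left 226 and 223 members (4.83% and 4.89%) at 213 and 213 genes, 89 in both, with overlaps of 71.2% and 79.4%. For SBNO1 at the highest score GC was 54.0%, AP-1 35.0%, NFY 20.4% and NRF1 0%, and for TAF4 ETS was 17.5%, the E-box 12.6% and CTCF 0%. A reciprocal overlap of 50% lowered the sharing to 52.0% and 64.6%. With peaks overlapping IgG kept in, SBNO1 sharing was 63.7% and the median TAF4 score 910. Windows of 400 bp gave AP-1 in 37.8% and 29.7%, KLF/SP in 34.9% and 47.9%, ETS in 15.8% and 21.4%, NFY in 40.9% and 42.4%, TATAAA in 12.0% and 8.84%, the E-box in 9.51% and 12.4%, and CTCF in 1.93% for TAF4. Windows 1000 bp away gave GC of 47.0% and 47.5%, CpG ratios of 0.25 and 0.29, AP-1 4.17% and 4.34%, KLF/SP 8.20% and 9.57%, ETS 3.32% and 2.25%, NFY 23.3% for TAF4, TATAAA 13.4% and 11.6%, the E-box 2.60% and 3.14%, NRF1 0% and 0.0804%, and CTCF 0.130% and 0.0804%. Without genes holding 3 or more members, an alternative chosen after seeing the data, the sharing was 59.4% and 74.3%. The soft-masked share was not run, as the genome used here was in upper case. Without replicates or read counts, spread between cultures and depth could not be assessed.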

Other observations

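The 84 IgG peaks at lncRNA promoters were spread unevenly over the chromosomes. Chromosome 1 held 14 of them, chromosomes 11 and 22 held 11 each and chromosome 17 held 10. Of lncRNA genes with a start over 1 kb from protein-coding TSS, chromosome 1 has 1307, chromosome 11 753, chromosome 17 804 and chromosome 22 382. On chromosome 22 all of these IgG peaks except that at ENSG00000225676 lay at genes of the FAM230 family. Beside the IgG peaks, chromosome 22 had 14 SBNO1 and 12 TAF4 members, and chromosome 1 had 89 and 76. The share of lncRNA genes with a member also varied by chromosome. It was 6.37% for SBNO1 on chromosome 11 and 6.22% for TAF4 on chromosome 7, against 0.823% and 1.03% on chromosome 18 and 0.971% and 1.62% on chromosome X.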
